A study of Mus musculus with 4 samples.

Results

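RNA of peritoneal macrophages was compared between mice given microcurrent stimulation (MCS) and control mice at ZT2, right when the stimulation had ended. ZT is zeitgeber time, hours after lights on. The comparison rests on 1 library per condition. It covers the 12612 of 15298 genes whose mean of both ZT2 libraries lay above 1 CPM (read counts scaled to a normalized library size). The same minimum leaves 12368 genes for the pair of libraries at ZT14, taken 12 h after MCS. The mice were female BALB/c, 6 weeks old. MCS was a bidirectional pulsed current of 300 µA at 400 Hz, passed for 15 min between pads on abdomen and back under isoflurane. Control mice went through the same handling and anesthesia without current, and the labels call them untreated. The cells were sorted as CD11b+ F4/80+ Ly6G- cells of the abdominal cavity, so both libraries share the anesthesia, the pads, the lavage and the sort. The sources used here do not say how many mice were pooled per library.

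The peritoneal cavity holds a large, resident, self-maintaining macrophage population that depends on the transcription factor GATA6, and a smaller population replenished from blood monocytes that carries more MHC class II. Cells answer a sudden stimulus within minutes by transcribing immediate early genes such as the *Fos* and *Jun* families, which encode unstable transcription factors, while clock genes of the *Per* family respond both to the time of day and to acute signals such as cAMP and glucocorticoids. A cell preparation that looks pure by surface proteins can still carry RNA of neutrophils, mast cells, lymphocytes or red blood cells. In bulk RNA, fewer cells of a type and less RNA per cell cannot be told apart.

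The reads behind the values were 8658191 in control and 8365590 in MCS. A single read equaled 0.115 CPM in the control and 0.116 CPM in the MCS library, and a gene with no read may have a level of up to 3 reads, 0.346 and 0.348 CPM. The ribosomal RNA precursor *Rn45s* took 6.18% of the reads in control and 4.47% in MCS. The defining macrophage genes carried high values in both libraries: the lysozyme gene *Lyz2* had 17454 and 17344 CPM, and *Itgam*, which encodes CD11b, had 5162 and 4760 CPM. Log2 ratios of MCS to control used an added 0.1 CPM on both sides, which understates the change of low genes. Each 95% interval is an exact binomial (Clopper-Pearson) interval on the recovered reads, covers counting error alone and compares 2 libraries, not groups of mice. At ZT2 alone, 1 library per condition leaves no degree of freedom for a test between conditions, and "higher" and "lower" below refer to these libraries.

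Most genes had nearly the same level in both libraries. The median log2 ratio was 0.005, the median absolute log2 ratio was 0.15, and 89.6% of genes lay within 0.5 of no change, with the 5th and 95th percentiles at -0.49 and 0.53. A log2 ratio beyond 1 in either direction was found for 279 genes, 2.21% of those compared. MCS was the higher library for 182 (1.44%) and the lower one for 97 (0.769%). The counting interval excluded no change for 146 of the 182 and for 64 of the 97. Without regard to the size of the ratio, the interval lay above no change for 11.5% of genes and below it for 11%. These shares are the background for each list below. Genes with more reads have narrower intervals, so lists of abundant genes can exceed these shares at smaller ratios. The part of read depth was not tested for any list. For 31 genes the whole interval lay above a log2 ratio of 1, and for 6 it lay below -1.

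The share of genes past 1 followed the level of expression. It was 16.0% among genes with a mean between 1 and 2 CPM, 4.30% between 2 and 8 CPM and 0.512% between 8 and 32 CPM. Above 8 CPM, 17 genes were higher and 9 were lower out of 9180. On the higher side the genes nearest to the threshold were *Moap1* just inside and *H2-T9* just outside, named for their place at the threshold. *Moap1* had 1.96 CPM in the control and 4.06 CPM in the MCS library, and *H2-T9* had 6.47 and 13 CPM. In sum with *Gm20604*, whose transcript is nearly identical, *Moap1* had 9.93 and 7.89 CPM, a log2 ratio of -0.33. On the lower side *Ifit1bl1* had 2.19 and 1.04 CPM just inside, and *Flt4* had 3.81 and 1.86 CPM just outside. Each shared its ratio with another gene.

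**Figure D1:**
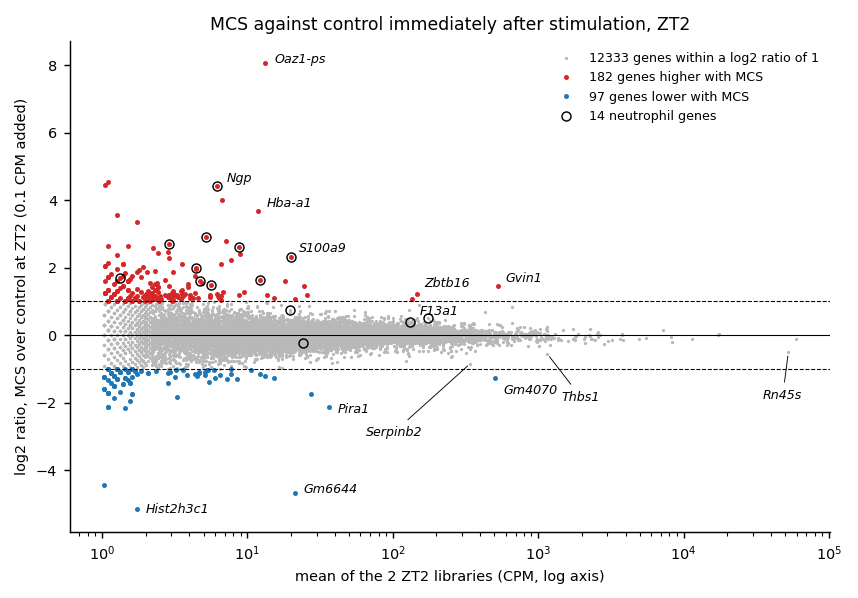
Log2 ratio of MCS to control at ZT2 (vertical axis) against the mean CPM of both libraries (horizontal log axis) for 12612 genes, 1 point per gene; dashed lines mark log2 ratios of 1 and -1, and open circles mark neutrophil genes. The 182 higher (red) and 97 lower (blue) genes lie mostly at low expression, and 26 of them have a mean above 8 CPM.

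A part of the extreme ratios belongs to genes whose transcripts are nearly identical to those of another gene, between which the counting can divide reads differently in each library. Of the 260 genes past 1 that could be matched to GENCODE transcripts, 35 had such a partner, with at least 95% identity over at least 50% of the shorter transcript. When a gene was summed with its partners, 4 of the 35 stayed past 1 and 31 did not. *Oaz1-ps*, a pseudogene, had no reads in control and 26.6 CPM in MCS, whereas its sum with the antizyme gene *Oaz1* was 156 and 129 CPM. *Gm6644* had 40.9 CPM in the control and 1.51 CPM in the MCS library, and 81.7 and 70.0 CPM together with the aldose reductase gene *Akr1b3*. The interferon-inducible GTPase genes *Gm4070*, with 711 and 297 CPM, and *Gvin1* and *Gm8979* (both named after their values were seen) had 1044 and 1130 CPM in sum. Above 8 CPM, the sums of 5 higher and 5 lower genes fell short of the threshold, 2 higher and 3 lower genes could not be matched, and 10 higher genes and 1 lower gene were past 1 alone or in sum. The 1 lower gene was *Rpl22l1*, a paralog of the ribosomal protein gene *Rpl22*, with 14.2 CPM in the control and 6.96 CPM in the MCS library, named after its values were seen.

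The genes whose intervals lay farthest above no change included genes typical of neutrophils and red blood cells. *Ngp*, which encodes a granule protein of neutrophils, had 0.462 CPM (4 reads) in the control and 11.9 CPM in the MCS library (log2 ratio 4.42, 95% interval 3.29 to 6.6). The genes of hemoglobin chains, *Hbb-b1* and *Hba-a1*, had 0.693 and 1.62 CPM in control and 12.6 and 22 CPM in MCS. *Ovgp1*, which encodes an oviduct glycoprotein, had 2.66 and 12.9 CPM, with an interval from 1.62 to 2.99. *Gzmb*, the granzyme of cytotoxic lymphocytes and of mast cells, had 2.77 and 15.1 CPM. The secreted Wnt inhibitor gene *Sfrp2* and the serine protease gene *Htra1*, both typical of connective tissue, had no reads in control and 2.20 and 2.09 CPM in MCS, at least 6.36-fold and 6.03-fold higher when control is set at 3 reads. The matrix gene *Tnc* had 0.231 and 3.25 CPM, and the protease gene *Asprv1* had 0.115 CPM (1 read) and 2.44 CPM.

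*Zbtb16* took the most reads among the genes past 1 that have no near-identical partner. It encodes the zinc finger transcription factor PLZF, which glucocorticoids induce in many cells. Control had 88.4 CPM and MCS had 205 CPM (log2 ratio 1.21, 95% interval 1.09 to 1.34), and at ZT14 control had 18.5 CPM and MCS had 47.6 CPM, a log2 ratio of 1.36. *F13a1*, which encodes the A subunit of coagulation factor XIII and is made by monocytes and macrophages, had 87.0 and 184 CPM at ZT2 (log2 ratio 1.08, 95% interval 0.96 to 1.21). At ZT14 it was lower with MCS, with 148 and 89.5 CPM. *Adgrg5*, which encodes an adhesion G protein-coupled receptor, had 8.20 and 19.0 CPM at ZT2 and 6.37 and 16.3 CPM at ZT14. *F13a1* and *Adgrg5* were named after their values were seen. *Adamts9*, which encodes a secreted metalloprotease that cleaves proteoglycans, had 15.7 and 35.7 CPM, with an interval from 0.89 to 1.49.

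Among the genes lowest with MCS, *Pira1* stood out by its level. It encodes a paired immunoglobulin-like activating receptor and had 59.6 CPM in the control library and 13.5 CPM in the MCS library (log2 ratio -2.14, 95% interval -2.45 to -1.85), although this gene belongs to a family of close relatives and could not be matched here. *0610010B08Rik*, also unmatched, had 42.5 and 12.6 CPM. *Proz*, which encodes the vitamin K-dependent protein Z of plasma, had 5.20 and 1.39 CPM. *Serpina3f*, a serine protease inhibitor gene, had 7.97 and 3.02 CPM, and in sum with *Serpina3g* 39.3 and 23.2 CPM, a log2 ratio of -0.76. *Ass1*, the argininosuccinate synthase gene, had 10.4 and 4.18 CPM but 43.9 and 45.2 CPM in sum with *Gm5424*. The histone genes *Hist2h3c1* and *Hist2h2aa2* had 3.46 and 2.08 CPM in control and no reads in MCS, and their sums with near-identical histone genes had log2 ratios of -0.03 and -0.13.

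Immediate early genes were compared because the cells were taken right after the current. Of 21 transcription factor genes of this class, all above 1 CPM, 17 had a log2 ratio above 0. The intervals of 10 excluded no change on the higher side and those of 0 on the lower side. The higher share was 47.6% beside the 11.5% of all genes, and the part of read depth in it was not tested. The median log2 ratio was 0.23, and 2 genes were past 1. *Fosb*, an AP-1 subunit gene, had 1.96 CPM in the control library and 4.52 CPM in the MCS library (log2 ratio 1.16, 95% interval 0.35 to 2.12). *Maff*, which encodes a small MAF factor, had 1.85 and 4.18 CPM, with an interval from 0.29 to 2.12.

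At higher levels the differences were smaller and better determined. *Klf10*, induced by TGF-beta, had 74.7 CPM in the control library and 111 CPM in the MCS library (log2 ratio 0.58, 95% interval 0.43 to 0.72). *Bhlhe40*, a repressor that is part of the clock and also an early response gene, had 82.6 and 118 CPM, and *Junb* had 118 and 152 CPM. *Fos* had 18.7 and 24.1 CPM (interval 0.06 to 0.67) and *Jun* 33.5 and 39.7 CPM (interval 0.01 to 0.48). *Fosl2*, *Jund* and *Klf6* were higher as well, with log2 ratios of 0.20, 0.23 and 0.11. *Egr1*, with 11.2 and 12.2 CPM, *Nr4a1*, with 7.39 and 9.74 CPM, and *Myc*, with 125 CPM in each, had intervals that held no change. At ZT14 the median of the same 21 genes was -0.24, with 1 interval on the higher and 10 on the lower side.

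The other early response lists differed from this one. Among 21 immediate early genes of signal feedback above 1 CPM, *Ier2* and *Dusp6* were on the higher side and *Dusp1* and *Btg2* on the lower side, and the median was 0.01. *Dusp1*, the phosphatase that ends MAP kinase signals, had 139 and 124 CPM. *Dusp4* passed 1 with 0.924 and 2.20 CPM, but its interval reached no change and it passed the minimum through the MCS library alone. Of 11 targets of the cAMP-responsive factor CREB, 4 lay on the lower and 1 on the higher side, and the median was -0.16. *Fosb*, *Nr4a1*, *Per1*, *Dusp1*, *Sik1* and *Rgs2* stand both in this list and in others.

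The start regions of 4 of these genes are shown because they carry the letters through which CREB and clock factors are known to bind. Each is the RefSeq window from 250 bases before to 50 bases after a start site in GRCm38.p6, on the strand of the gene, 5′ to 3′. Capitals mark TGACG or CGTCA (a short CREB site on either strand), the full site TGACGTCA, which contains the short site on both strands, and the E-box CACGTG. *Fosb* lies at chr7:19309996-19310295 (minus strand), *Junb* at chr8:84978699-84978998 (minus), *Maff* at chr15:79347270-79347569 (plus, 1 of 3 windows) and *Per1* at chr11:69098699-69098998 (plus, 1 of 2 windows). Where a gene had more windows, the one with the most matches is shown.
Fosb: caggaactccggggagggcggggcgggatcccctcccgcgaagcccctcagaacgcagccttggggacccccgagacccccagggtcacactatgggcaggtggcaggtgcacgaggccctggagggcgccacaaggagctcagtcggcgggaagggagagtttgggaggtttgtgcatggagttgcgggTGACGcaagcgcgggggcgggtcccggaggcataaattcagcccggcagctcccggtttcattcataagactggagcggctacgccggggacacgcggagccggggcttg
Junb: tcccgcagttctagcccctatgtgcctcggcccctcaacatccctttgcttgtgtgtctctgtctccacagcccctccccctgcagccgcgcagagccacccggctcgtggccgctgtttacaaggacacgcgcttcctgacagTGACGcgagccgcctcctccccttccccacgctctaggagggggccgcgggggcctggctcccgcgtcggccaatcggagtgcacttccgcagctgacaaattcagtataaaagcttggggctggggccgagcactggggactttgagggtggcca
Maff: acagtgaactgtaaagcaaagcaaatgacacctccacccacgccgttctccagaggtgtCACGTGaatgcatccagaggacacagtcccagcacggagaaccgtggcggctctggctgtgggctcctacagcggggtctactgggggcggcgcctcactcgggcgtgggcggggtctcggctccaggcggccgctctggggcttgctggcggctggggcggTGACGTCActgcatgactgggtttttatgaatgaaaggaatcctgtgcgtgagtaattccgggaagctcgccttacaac
Per1: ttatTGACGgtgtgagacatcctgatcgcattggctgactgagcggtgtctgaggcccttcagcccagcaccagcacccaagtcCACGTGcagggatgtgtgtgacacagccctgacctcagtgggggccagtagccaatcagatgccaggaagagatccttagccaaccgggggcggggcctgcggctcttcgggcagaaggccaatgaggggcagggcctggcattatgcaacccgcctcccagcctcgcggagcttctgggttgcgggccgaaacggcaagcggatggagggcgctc
The short site occurred in 20.8% of all 32851 windows of this length, the full site in 1.79% and the E-box in 7.15%. Of the 9596 compared genes with a window, 35% had the short site in at least 1 window, and so did 12 of the 16 immediate early transcription factor genes and 5 of the 15 core clock genes with a window. The full site was found for 3.55% of the compared genes, for 1 of the 16 and for 0 of the 15. *Fosb*, *Junb* and *Maff*, higher with MCS, and *Per1*, lower with MCS, all hold the short site. They are shown because they carry such letters, so this is no result about their lists. A match describes letters and not a bound site.

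Among core clock genes, 19 of 23 were above 1 CPM, none was past 1, and the intervals of 5 lay on the higher and of 2 on the lower side. The median was 0.22 at ZT2 and -0.25 at ZT14. With a mean above 8 CPM the ZT2 median was 0.07. The summed level of the list at ZT2 had a log2 ratio of 0.02 (95% interval -0.03 to 0.07). Without *Per1*, which took the most reads, it was 0.12 (0.06 to 0.18). The lower genes were *Per1*, the period gene that responds fastest to acute signals, with 157 CPM in the control and 118 CPM in the MCS library, and *Nfil3*, a repressor of D-box genes, with 69.2 and 45.5 CPM. Both intervals, from -0.53 to -0.29 and from -0.79 to -0.42, lay clear of no change. On the higher side, *Per2* had 5.66 and 9.74 CPM (log2 ratio 0.77, interval 0.26 to 1.32) and *Rora* had 21.0 and 26.9 CPM. *Bhlhe40*, *Bhlhe41* and *Csnk1e* completed this side. The activators *Clock*, with 93.5 and 98.3 CPM, and *Arntl*, with 32.3 and 33.6 CPM, had ratios of 0.07 and 0.06. *Nr1d1*, *Dbp*, *Tef* and *Per3* had levels in both ZT2 libraries between 2.43 and 15.7 CPM, and their intervals held no change.

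**Figure D2:**
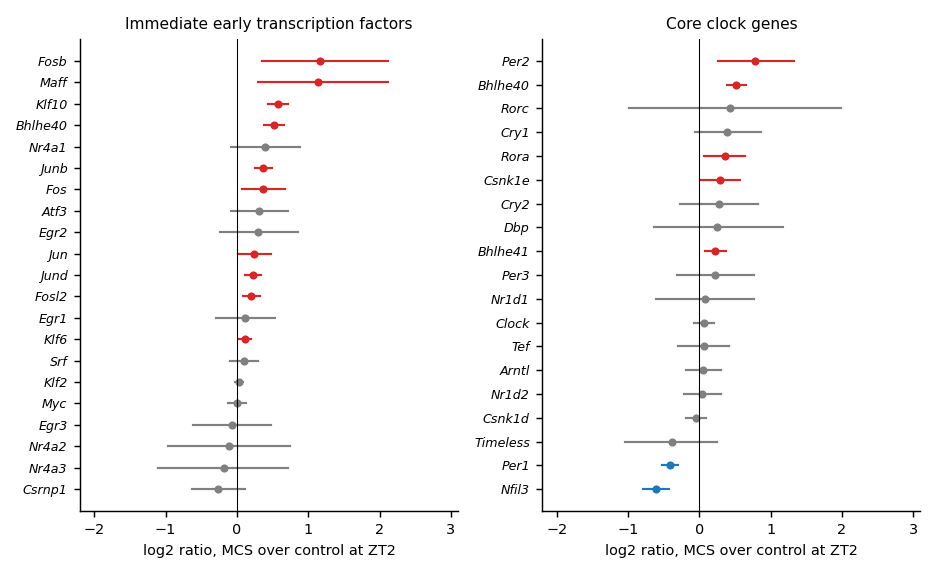
Log2 ratio of MCS to control at ZT2 (points) with 95% counting intervals (lines) for 21 immediate early transcription factor genes and 19 core clock genes above 1 CPM; red intervals lie above and blue intervals below no change, and gray ones hold it. The left panel has 10 red and 0 blue intervals, and in the right panel *Per1* and *Nfil3* are the blue ones beside 5 red ones.

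Genes that respond to glucocorticoids lay on both sides of no change. Of 20 genes, 5 lay on the higher and 7 on the lower side, and the median was -0.09 at ZT2 and 0.22 at ZT14. *Fkbp5*, a feedback gene of the glucocorticoid receptor, had 173 CPM in the control and 223 CPM in the MCS library, and *Zbtb16* was higher as given above. *Tsc22d3*, which encodes the anti-inflammatory factor GILZ, was lower with 537 and 473 CPM, as were *Per1* and *Dusp1*. *Il1r2*, a decoy receptor gene that neutrophils also express, had 0.577 and 2.09 CPM. It passed the minimum through the MCS library alone and had to be higher there.

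Stress lists held mostly small ratios. Of 20 heat shock genes, 5 lay on the higher and 0 on the lower side. *Hspa8*, the constitutive HSP70 gene, had 1082 and 1213 CPM and the co-chaperone gene *Dnajb1* had 23.9 and 32.7 CPM (log2 ratio 0.45, 95% interval 0.19 to 0.72). *Hspa1a*, the inducible HSP70 gene, had 3.46 and 4.87 CPM and an interval that held no change, also in sum with its copy *Hspa1b*. Both cold-inducible RNA-binding protein genes were lower, *Cirbp* with 28.9 and 21.2 CPM and *Rbm3* with 135 and 100.5 CPM, log2 ratios of -0.44 and -0.43. At ZT14 they had ratios of 0.13 and 0.21.

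The unfolded protein response list lay lower, with 10 of 19 genes on the lower and 2 on the higher side and a median of -0.12. *Hspa5*, which encodes the endoplasmic reticulum chaperone BiP, had 717 CPM in the control library and 586 CPM in the MCS library (log2 ratio -0.29, 95% interval -0.34 to -0.24). *Calr*, the calreticulin gene, went the other way, with 970 and 1099 CPM. Integrated stress response, NRF2, p53 and hypoxia genes had medians between -0.05 and 0.01. In these lists, the asparagine synthetase gene *Asns* had 1.15 and 3.02 CPM, the cystine transporter gene *Slc7a11* had 9.35 and 6.15 CPM, and *Vegfa* had 1.27 and 3.13 CPM. *Ndrg1*, a hypoxia gene, had 17.8 and 27.3 CPM, with an interval from 0.32 to 0.92.

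Neutrophil genes had the highest median of the lists with at least 10 members above 1 CPM. The sort removed Ly6G+ cells, and *Ly6g* itself was not analysed here. Of 22 listed genes 14 were above 1 CPM, 3 of them through the MCS library alone, and 10 of the 14 were past 1 and 13 had intervals on the higher side, with a median log2 ratio of 1.67. Genes that pass the minimum through the MCS library had to be higher there, so these counts describe the list and are no measure of its extent. Over all 19 members analysed, the minimum aside, the summed level was 323 CPM in the control library and 521 CPM in the MCS library (log2 ratio 0.69, 95% interval 0.62 to 0.76). At ZT14 the sums were 349 and 344 CPM.

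Genes of neutrophil granules and of the calprotectin complex were among those that differed the most within this list. *S100a9* and *S100a8*, the subunits of calprotectin, had 6.70 and 5.89 CPM in control and 33.5 and 18.6 CPM in MCS. *Mpo*, the myeloperoxidase gene, had 2.43 and 15.2 CPM, *Ltf*, the lactotransferrin gene, 1.15 and 9.28 CPM, and *Lcn2*, which encodes a siderophore-binding protein, 1.73 and 7.19 CPM. The collagenase gene *Mmp8*, with 0.693 and 5.10 CPM, and the protease gene *Ctsg*, with 2.89 and 8.35 CPM, were past 1 too. At ZT14 *S100a9* was lower with MCS, with 9.23 and 1.23 CPM, and *Ngp* and *Mpo* had no reads in MCS.

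Of the 14 members above 1 CPM, 4 were not past 1. *Csf3r*, the receptor gene of the granulocyte growth factor, had 143 and 205 CPM (log2 ratio 0.52), and *Mmp9* had 114 and 148 CPM. *Cxcr2*, a chemokine receptor gene, had 14.6 and 24.7 CPM. *Prtn3* was the only one of the 14 with a ratio below 0, with 26.0 and 22.2 CPM and an interval from -0.52 to 0.05. Without *Csf3r*, which took the most reads of the list, the sum had a log2 ratio of 0.81. *Elane* and *Camp*, other granule genes of the list, stayed below 1 CPM in both libraries. Of the 5 analysed members not above the minimum, 4 had more reads in MCS and 0 had fewer.

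**Figure D3:**
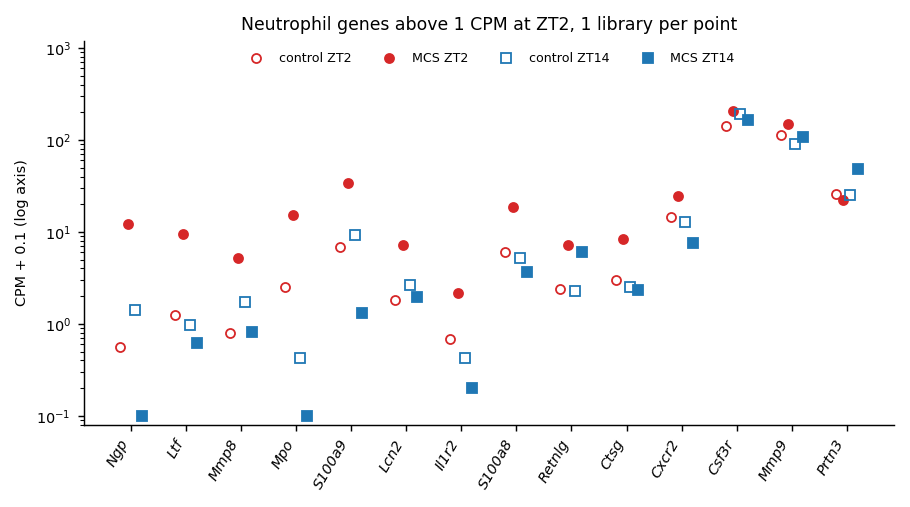
CPM plus 0.1 (log axis) of the 14 neutrophil genes above 1 CPM at ZT2, 1 point per library, in order of their log2 ratio at ZT2; red circles are ZT2 and blue squares ZT14, open for control and filled for MCS. The filled red circle is the upper red one for 13 genes, with *Prtn3* as the exception.

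Hemoglobin genes were the other group with very high ratios. Of 14 red blood cell genes, 4 were above 1 CPM, and *Hba-a1* and *Hbb-b1* were past 1 with log2 ratios of 3.69 (95% interval 2.99 to 4.67) and 4.01 (3.02 to 5.67). *Hbb-b1* and *Alas2* passed the minimum through the MCS library alone and had to be higher there, so the count is no measure of the group. *Hba-a2*, nearly identical to *Hba-a1*, had no reads in either ZT2 library. *Alas2*, the erythroid heme synthesis gene, had 0.924 and 1.51 CPM, and *Bpgm*, which red blood cells need for oxygen release, had 6.24 and 5.80 CPM, and both intervals held no change. At ZT14 *Hba-a1* had 0.220 CPM in the control and 19.6 CPM in the MCS library and *Hba-a2* had no reads in control and 49.5 CPM in MCS, so both libraries from stimulated mice carried more of this RNA than their controls.

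Mast cells are scattered through the peritoneal cavity and store histamine and proteases. Of 15 mast cell genes, all above 1 CPM, none was past 1, the intervals of 10 lay on the higher side and of 0 on the lower side, and 14 had a ratio above 0, with a median of 0.31. The proteases *Cpa3*, *Tpsb2*, *Cma1* and *Mcpt4* had 462, 491, 517 and 238 CPM in control and 581, 607, 610 and 291 CPM in MCS, log2 ratios from 0.24 to 0.33. *Hdc*, which encodes the enzyme that makes histamine, had 97.2 and 162 CPM (log2 ratio 0.73, 95% interval 0.61 to 0.86), and the growth factor receptor gene *Kit* had 102 and 142 CPM. The summed level was 2118 CPM in the control and 2661 CPM in the MCS library, and at ZT14 it was 1391 and 1176 CPM.

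Genes of other non-macrophage cells were higher in part. Of 14 genes of natural killer and innate lymphoid cells, 5 lay on the higher and 0 on the lower side. Among the 14, 1 passed the minimum through the MCS library alone and had to be higher there. *Gata3*, a factor of innate lymphoid and T cells, had 4.27 and 8.93 CPM, and *Il1rl1*, the receptor gene of interleukin 33, had 106 and 147 CPM (interval 0.35 to 0.59), although mast cells express it too. T cell genes had a median of 0.31. Of the 15, 4 lay on the higher side, such as *Cd247*, with 2.54 and 5.10 CPM, and *Cd8b1*, with 0.693 and 2.32 CPM. *Cd8b1* passed the minimum through the MCS library alone and had to be higher there. Of 7 eosinophil genes, 2 intervals lay on the higher side, 1 on the lower side and 4 held no change, and the median was 0.12. *Siglecf*, with 1.27 and 5.80 CPM, and *Ccr3*, with 5.31 and 12.2 CPM, were past 1, and at ZT14 they had 0.659 and 14.1 CPM, and 1.32 and 33.8 CPM. The summed level of the eosinophil list was 4091 and 3694 CPM, most of it from *Alox15*, which resident macrophages also express, with 4015 and 3607 CPM. B cell genes lay lower, with 6 of 16 on the lower side and 1 on the higher side. The B cell genes *Mzb1* and *Cd22* had 41.5 and 180 CPM in control and 26.4 and 142 CPM in MCS.

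The liver list had the lowest median of the lists with at least 10 members above 1 CPM. Of 12 liver genes, 10 had a ratio below 0, 2 intervals lay on the lower and 1 on the higher side, and the median was -0.28, with *Alb*, the albumin gene, at 36.1 and 28.9 CPM. Its summed level without *Trf*, the transferrin gene that took the most reads, had a log2 ratio of -0.33 (95% interval -0.47 to -0.18), and with it 0.02. The 11 mesothelial genes had 3 intervals on the higher and 1 on the lower side. Their summed level was 424 and 322 CPM (log2 ratio -0.40), and without *Slpi* the ratio of the sum was 0.34 (95% interval 0.15 to 0.54). *Slpi*, a protease inhibitor gene that macrophages also express, had 377 and 263 CPM, and the keratin gene *Krt8* had 1.73 and 4.41 CPM. *Wt1* and *Upk1b*, defining mesothelial genes, stayed below 1 CPM in both libraries. Of 11 fibroblast genes 3 lay on the higher side, such as *Col3a1* with 2.89 and 5.22 CPM, and of 3 endothelial genes above 1 CPM 0 lay on the higher side and 1 on the lower side, *Eng*, which encodes endoglin, with 55.9 and 46.6 CPM.

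The genes of the resident and of the monocyte-derived macrophages of the cavity lay on opposite sides of no change. Of 26 large peritoneal macrophage genes, all above 1 CPM, 20 had intervals on the lower and 2 on the higher side, with a median of -0.14. The share on the lower side was 76.9%, beside 11% of all genes. Of 20 genes of small peritoneal macrophages and monocytes above 1 CPM, 13 lay on the higher and 2 on the lower side, with a median of 0.16. The share on the higher side was 65%, beside 11.5% of all genes. Both lists hold abundant genes, whose many reads narrow the intervals, and the part of read depth in these counts was not tested. No gene of either list was past 1. The summed level went from 94272 CPM in control to 85710 CPM in MCS for the first list, a log2 ratio of -0.14 (95% interval -0.14 to -0.13), and from 7751 to 8428 CPM for the second, a log2 ratio of 0.12 (0.11 to 0.14).

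Within the resident list, *Serpinb2*, which encodes plasminogen activator inhibitor 2, was the lowest, with 439 CPM in the control library and 245 CPM in the MCS library (log2 ratio -0.84, 95% interval -0.92 to -0.76). *Cd5l*, which encodes an apoptosis inhibitor of macrophages, had 369 and 286 CPM. *Adgre1*, which encodes F4/80, the protein used in the sort, had 1326 and 1086 CPM. *Fn1*, the fibronectin gene, had 61551 and 56553 CPM, the lipoxygenase gene *Alox15* had 4015 and 3607 CPM, and *C4b*, a complement gene, 8923 and 7732 CPM. The exceptions on the higher side, named after their values were seen, were *Gata6*, with 69.1 and 80.9 CPM, and *Cxcl13*, with 193 and 222 CPM. At ZT14 15 of the 26 genes lay on the higher side and 7 on the lower side.

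In the monocyte-derived list, *Itgax*, which encodes CD11c, had 11.9 CPM in the control library and 22.2 CPM in the MCS library (log2 ratio 0.89, 95% interval 0.54 to 1.26). *Cd209a*, a lectin gene of monocyte-derived dendritic cells, had 25.1 and 38.6 CPM, and *Ccr2*, the receptor gene through which monocytes leave the bone marrow, had 179 and 234 CPM. The MHC class II genes *H2-Ab1* and *Cd74* had 577 and 2142 CPM in control and 738 and 2438 CPM in MCS. *Lyz1*, nearly identical to *Lyz2*, had 1425 and 1302 CPM. The median of this list at ZT14 was 0.03. Of 12 pan-macrophage genes, 4 lay on the lower and 2 on the higher side, with a median of -0.04.

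**Figure D4:**
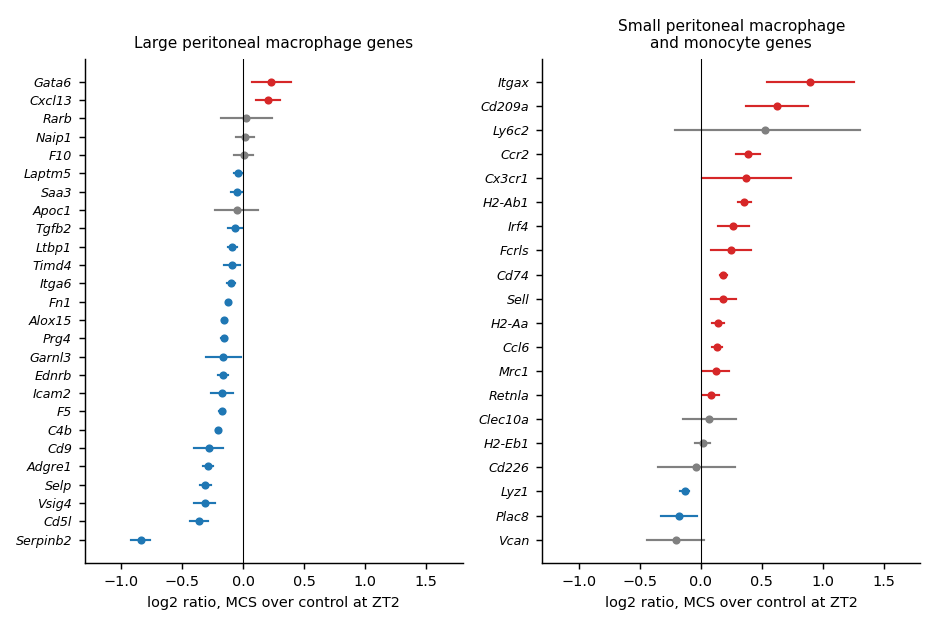
Log2 ratio of MCS to control at ZT2 (points) with 95% counting intervals (lines) for 26 large peritoneal macrophage genes (left) and 20 small peritoneal macrophage and monocyte genes (right) above 1 CPM; red intervals lie above and blue intervals below no change, and gray ones hold it. The left panel has 20 blue and 2 red intervals and the right panel 2 blue and 13 red ones.

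Genes of the ribosome and of the respiratory chain were lower together by small amounts. All 78 ribosomal protein genes were above 1 CPM, 52 of them had intervals on the lower and 8 on the higher side, and their median was -0.14. *Rpl39* had 156 CPM in the control library and 91.6 CPM in the MCS library (log2 ratio -0.76, 95% interval -0.89 to -0.64), while *Rplp0* had 1048 and 908 CPM. *Rpl26* had the lowest ratio at 3.23 and 1.62 CPM, but 277 and 267 CPM in sum with *Gm15772*. Of 41 nuclear genes of oxidative phosphorylation, 15 lay on the lower and 2 on the higher side, with a median of -0.17. The ATP synthase gene *Atp5g3* had 37.4 and 23.1 CPM and the complex I gene *Ndufa2* had 19.3 and 12.4 CPM. Scaled to all recovered reads in place of the deposited scaling, the medians at ZT2 were -0.09 and -0.13. At ZT14 the medians of both lists lay on the other side, at 0.23 and 0.39.

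These genes have short transcripts, and transcript length was therefore set beside the result. Among the 20% of genes with the shortest transcripts, the intervals of 13.4% lay on the lower side, against 8.99% of the 20% with the longest. Within the shortest, 49 of 81 ribosomal protein or oxidative phosphorylation genes lay on the lower side (60.5%), beside 276 of 2346 other genes (11.8%). The ribosomal and respiratory genes took more reads, with a median of 222 CPM against 21.3 CPM, which narrows their intervals. The part of length or of read depth in the result was not tested.

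Genes of antigen presentation lay on both sides of no change. Of 16 MHC class I genes 11 lay on the lower and 2 on the higher side, with a median of -0.23, and *H2-D1* had 2262 CPM in the control and 1909 CPM in the MCS library. The light chain gene *B2m* was higher, with 812 and 947 CPM, a log2 ratio of 0.22. *H2-Q7*, with 1.62 and 3.48 CPM, and *H2-L* have close relatives, and the sum of *H2-Q7* with *H2-Q5* had a ratio of -0.18. Of 11 MHC class II genes, 4 lay on the higher and 1 on the lower side, with a summed level of 4394 and 4948 CPM.

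Inflammatory genes were few among those past 1. Of 10 proinflammatory cytokine genes above 1 CPM, *Il1b* was past 1, with 1.73 CPM in the control library and 7.08 CPM in the MCS library (log2 ratio 1.97, 95% interval 1.2 to 2.95), and it is a gene that neutrophils also express. The part of neutrophil RNA in this value was not tested. *Tnf* had 2.54 and 1.97 CPM and an interval from -1.37 to 0.61. *Il12a* had 6.58 and 3.83 CPM, with an interval below no change. *Cxcl1*, a chemokine that attracts neutrophils, had 1.15 and 3.48 CPM, and *Mefv*, the pyrin gene, had 1.96 and 5.80 CPM. Of 17 genes of NF-kB feedback, *Traf1*, with 16.6 and 10.7 CPM, and *Birc3*, with 197 and 168 CPM, were among 3 on the lower side, and none was on the higher side.

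Receptors of bacterial products and interferon-stimulated genes stayed close to no change. Of 17 Toll-like receptor genes 4 lay on the lower side, such as the co-receptor gene *Cd14*, with 296 and 245 CPM. Of 35 interferon-stimulated genes 1 lay on the higher and 3 on the lower side, with a median of -0.03. Of 16 eicosanoid genes 6 lay on the lower and 0 on the higher side, such as the phospholipase gene *Pla2g4a*, with 27.5 and 18.4 CPM, and the prostaglandin receptor gene *Ptger2*, with 13.2 and 9.16 CPM. Of 12 regulatory cytokine genes the 1 on the lower side was *Tgfb2*, which encodes a transforming growth factor, with 587 and 559 CPM.

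Genes of phagocytosis and of the cytoskeleton lay on both sides. Of 39 actin regulators, 8 were on the higher and 14 on the lower side, and the median was -0.03. The actin genes *Actb* and *Actg1* had 8317 and 1214 CPM in control and 8024 and 1118 CPM in MCS, whereas *Gsn*, the actin-severing gelsolin gene, had 17.0 and 22.4 CPM. *Tubg1*, the gamma-tubulin gene of the centrosome, had 6.70 and 11.5 CPM, with an interval from 0.30 to 1.27.

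Of 20 apoptotic cell recognition genes, 3 lay on the higher and 7 on the lower side. *Thbs1*, the thrombospondin 1 gene, had 1376 CPM in the control and 938 CPM in the MCS library and *Tgm2*, a transglutaminase gene, had 23.7 and 16.2 CPM. *Stab1*, a scavenger receptor gene for phosphatidylserine, had 332 and 537 CPM (log2 ratio 0.69, 95% interval 0.62 to 0.76). *Msr1*, another scavenger receptor gene, had 480 and 390 CPM. Of 13 genes of Fc receptors and their signal partners, 8 had a ratio below 0, 4 intervals lay on the higher and 1 on the lower side, and the median was -0.04. *Fcgr2b* and *Inpp5d*, which inhibit activation, had log2 ratios of 0.17 and 0.21, and *Syk* 0.09. Of 35 lysosome genes, 7 were on the higher and 10 on the lower side, with a median of -0.02, and *Mcoln1*, a calcium channel gene of the lysosome, had 23.4 and 32.4 CPM.

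Ion channel genes were listed because the stimulus was electrical. Of 36 above 1 CPM, 8 lay on the higher and 3 on the lower side, with a median of 0.04. *Gja1*, the connexin 43 gene, had 1.39 and 2.90 CPM and *Kcna3*, a potassium channel gene of leukocytes, had 7.62 and 11.6 CPM. *Cacna1e*, a voltage-gated calcium channel gene, had 301 and 333 CPM (log2 ratio 0.15.)

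Metabolic and proliferation lists held few genes with large ratios. Of 20 glycolysis genes, 3 lay on the higher and 4 on the lower side, with *Slc2a3*, a glucose transporter gene, at 12.1 and 18.0 CPM. In the iron and heme list *Slc40a1*, the iron exporter gene, had 0.577 and 3.94 CPM. It passed the minimum through the MCS library alone and had to be higher there. *Steap4*, a metalloreductase gene, had 2.43 and 10.8 CPM (log2 ratio 2.11). The ferritin genes *Fth1* and *Ftl1* had 632 and 2240 CPM in control and 610 and 2270 CPM in MCS. *Apoe*, a target of the oxysterol receptor LXR, had 6817 and 7589 CPM, with a log2 ratio of 0.15.

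Of 13 retinoic acid and GATA6 pathway genes, 5 lay on the higher and 2 on the lower side. The receptor gene *Rara* had 92.3 and 136 CPM (log2 ratio 0.56, 95% interval 0.43 to 0.69), and *Dhrs3*, which encodes an enzyme that reduces retinal, had 271 and 347 CPM. Mitosis genes had a median of -0.06, and *Mki67* had 83.4 and 86.3 CPM. At ZT14 the median of the mitosis genes was 0.66.

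**Figure D5:**
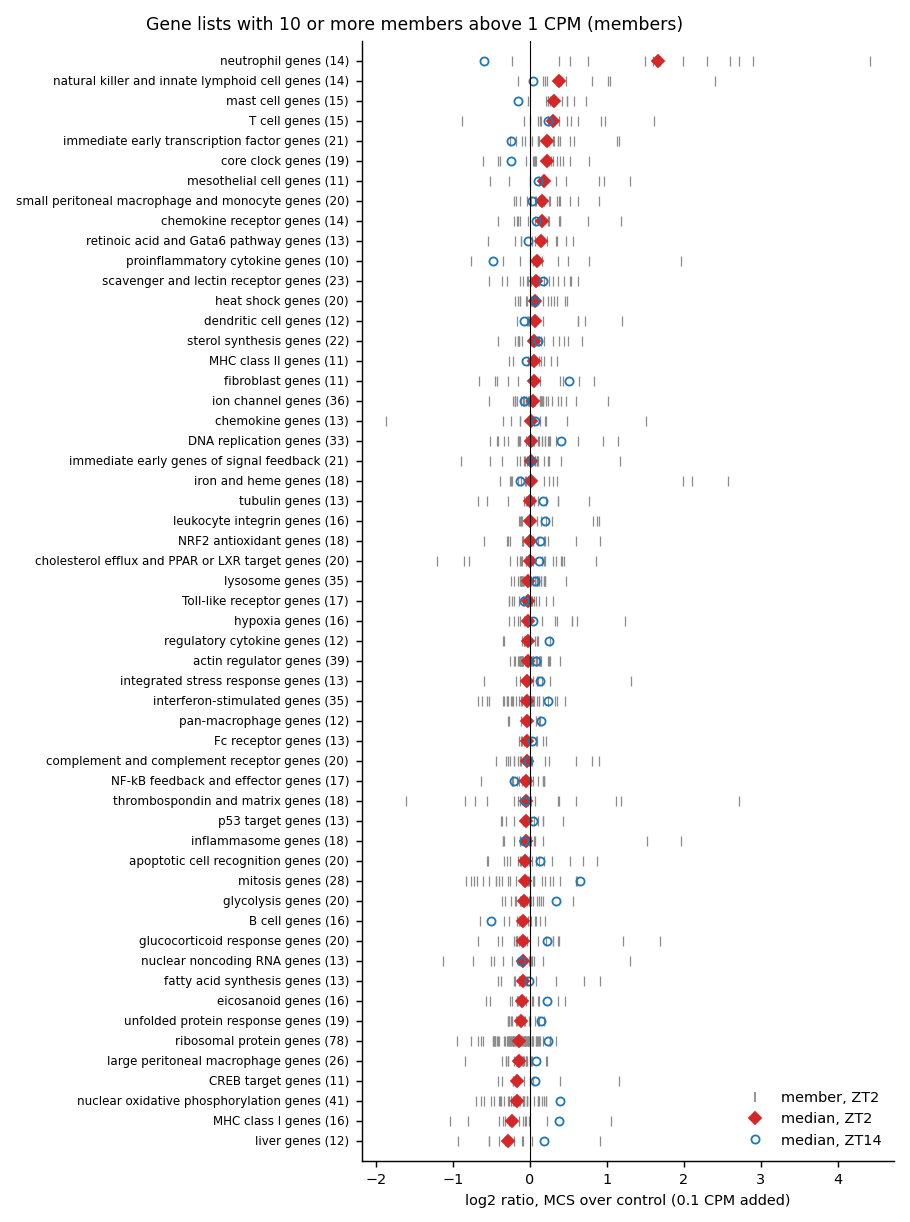
Log2 ratio of MCS to control (horizontal axis) for gene lists with at least 10 members above 1 CPM at ZT2, 1 row per list with the number of members in parentheses; gray ticks are members at ZT2, red diamonds their median at ZT2 and open blue circles the median of the same genes at ZT14. At ZT2 the neutrophil list stands apart at 1.67, and the other ZT2 medians lie between -0.3 and 0.4.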

How the data were processed

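RNA of sorted peritoneal macrophages was sequenced by the authors as paired reads after rRNA depletion, with a strand-specific kit. Per the labels and the submitters' processing notes, reads were trimmed with Trimmomatic 0.38, aligned to mm10 with Bowtie 2 and quantified with RSEM 1.3.0. The CPM values deposited by the authors were made with edgeR. The annotation, the strand setting of the counting and the number of mice per library are not given in the sources used here, and the labels and the study's methods name different RNA extraction kits.

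All values came out as whole reads within a tolerance of 0.05 when divided by what 1 read is worth, and these recovered reads gave the counting intervals and a floor of 3 reads. CPM values were compared as log2(CPM + 0.1) for genes with a mean above 1 CPM, with a threshold of 1. Sums over lists and over near-identical genes used the recovered reads. Genes were matched to GENCODE vM21 transcripts (GRCm38) with blastn 2.17.0, and promoters came from RefSeq. Python 3.11.15 with scipy 1.17.1 and R 4.3.3 with edgeR 4.0.16 were used, and the ratio script was tested on simulated data.

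The 63 gene lists and the rule for named genes were chosen with earlier results of these data known. The rule takes the 15 highest and 15 lowest genes by the interval bound nearest to no change, the 5 highest and 5 lowest ratios above 8 CPM, per list the members past 1, the 2 largest ratios and the 2 most abundant members, the 10 most abundant genes, all members of the clock, immediate early, neutrophil, mast cell, eosinophil and red blood cell lists, and genes the study names. Partners of near-identical genes, genes at the threshold and defining markers at low level were named outside it. Some genes that the rule or a list would name are not reported here.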

Additional observations from a re-analysis of the deposited data

Results flagged for a closer look

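For 25 genes the log2 ratio of MCS to control was past 1 in one direction at ZT2 and past 1 in the other at ZT14. This count takes only genes with a mean above 1 CPM and an interval clear of no change at both times. Of the 25, 9 fall under the rule for named genes. Each time holds 1 library per condition, so the difference between the times was not tested for any of them. *S100a9*, of neutrophils, had a log2 ratio of 2.31 at ZT2 and -2.81 at ZT14. *Steap4*, a metalloreductase gene, had 2.11 and -3.05, the pyrin gene *Mefv* 1.52 and -1.69, and the chemokine gene *Cxcl1* 1.51 and -1.12. All 4 were thus higher with MCS at ZT2 and lower at ZT14.

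The receptor gene *Pira1* went the other way, with -2.14 at ZT2 and 1.45 at ZT14, as did *Gm6251*, with -1.15 and 1.35. Neither *Pira1* nor *Gm6251* was matched to GENCODE transcripts, and near-identical partners of these genes were not tested. *Ass1*, with -1.3 and 1.13, *Gm6644*, with -4.67 and 9.32, and *Hist2h3c1*, with -5.16 and 1.5, have near-identical partners, and in sum with them none of these 3 was past 1 at ZT2. Ratios of *Gm6644* and *Hist2h3c1* include libraries without reads and depend on the 0.1 CPM added.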

How the results depend on the processing

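Of 279 genes past 1 (182 higher, 97 lower), 101 (76 and 25) remained with 1 CPM added, 26 (17 and 9) with a mean above 8 CPM, 37 (30 and 7) past a log2 ratio of 2 and 37 (31 and 6) with the whole interval beyond 1. Without a minimum the count was 1434 (805 and 629). With an interval clear of no change 64 lower genes remained. The share of higher genes was 65.2%, against 75.2% with 1 CPM added and 56.1% without a minimum, and 72.1% when scaled to all recovered reads. The TMM scaling of edgeR (trimmed mean of M values) over the 4 libraries gave the same counts as the deposited values, 182 and 97. The other scalings, a smaller addition and, chosen after seeing the data, sums of near-identical genes kept the counts within 1.5 times. Also chosen after seeing the data, an edgeR quasi-likelihood test of an effect common to both times used the 4 libraries, with 1 residual degree of freedom. It called 24 genes (20 higher, 4 lower) at a Benjamini-Hochberg adjusted p of 0.05. Of the 24, 14 were past 1 at ZT2, and some were not among the genes compared at ZT2. *Zbtb16* was called (adjusted p = 1.08e-05). Smaller adjusted p values included those of hemoglobin genes such as *Hba-a1* (1.86e-11) and of the pseudogene *Oaz1-ps* (2.59e-10), whose sum with *Oaz1* was not higher with MCS at ZT2. Of 12404 tested genes, 304 (2.45%) had an unadjusted p under 0.05, a smaller share than that threshold. The test takes the 2 times as replicates of the effect. For the list medians, a mean above 8 CPM gave 0.76 in place of 1.67 for neutrophil genes and 3.69 in place of 2.17 for red blood cell genes, and turned mesothelial genes from 0.177 to -0.089 and endothelial genes from 0.139 to -0.061, with fewer genes left. Scaling to all recovered reads turned the sign of 12 medians, none of which was above 0.0464 in size. By replicate number, no paired analysis was possible because each group has 1 library, and the test over the 4 libraries compares MCS with control within each time instead. No ZT2 library could be left out, as none would remain in its group. Depth limits genes under 8 CPM most, since 253 of the 279 lie there.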

Other observations

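Matrix and lipid genes lay on both sides of no change at ZT2. Of 18 genes of thrombospondins and matrix, 8 lay on the lower and 4 on the higher side of no change, 3 were past 1 higher and 1 lower, and the median was -0.05. The higher ones were the metalloprotease genes *Mmp8* and *Adamts9*, given with their values above, and *Mmp12*, with 0.693 and 1.62 CPM and an interval that held no change. *Mmp8* and *Mmp12* passed the minimum through the MCS library alone. The lower one, *Mmp14*, a membrane-bound collagenase gene, had 1.62 CPM in the control and 0.464 CPM in the MCS library. Of 13 fatty acid synthesis genes, 3 lay on the lower side, such as *Acaca* with 538 and 465 CPM, and 1 on the higher side. *Plin2*, which encodes a coat protein of lipid droplets, had 273 and 347 CPM at ZT2 and 94.6 and 281 CPM at ZT14. It was chosen after its values were seen, as were *Klf11*, a TGF-beta response gene with 26.3 and 43.7 CPM at ZT2, and *Syne1*, which encodes a nuclear envelope protein, with 52.0 and 78.0 CPM.

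Of 13 chemokine genes, 4 lay on the higher and 3 on the lower side. *Ccl6* had 1093 and 1197 CPM, while *Cx3cl1*, which encodes fractalkine, had 1.96 and 0.464 CPM, and *Pf4*, the platelet factor 4 gene that macrophages also express, had 227 and 191 CPM. *Malat1*, an abundant nuclear RNA, had 17122 and 17695 CPM.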
